A study of Drosophila melanogaster with 12 samples.

Results

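High glucose was compared with control glucose in the larval fat body of Drosophila melanogaster by RNA-seq. The high glucose diet (HGD) held 1.7 M glucose and the control glucose diet (CGD) 0.3 M glucose, with 3 replicate libraries on each, which the study's methods call biological replicates. These 6 glucose libraries, of 12 in the series, were chosen by their diet labels alone, and all 9500 genes of the table entered the comparison. The other 6 libraries came from the same cross on the same concentrations of fructose (HFD and CFD) and are used only in the last comparison below. On both diets the larvae were females at the wandering stage, the close of larval life, and were kept at 25 °C. Their fathers were w1118 flies and their mothers carried UAS-Dcr2 and r4-GAL4, so every library shares a Dicer-2 transgene driven in the fat body. The growth notes also speak of RNA interference against InR, whereas the cross they name holds no transgene of that kind, and the libraries are described here as the cross was labelled. The insulin receptor transcript InR had 476, 393 and 465 on HGD, against 351, 362 and 284 on CGD (log2 fold change 0.42, SE 0.16, limma adjusted p = 0.0805). Larvae on both diets were collected at the same stage, and fat bodies were freed by shearing and collected by centrifugation. The study matched larvae by stage because of a developmental delay, and it reports lower larval weights on HGD than on CGD. Ages were not given in the labels, so a difference in age between the diets cannot be told apart from diet.

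The fat body is the insect organ that combines the storage role of adipose tissue with the metabolic role of the liver. It takes up sugar from the hemolymph, stores it as glycogen and as triglyceride in lipid droplets, and releases trehalose, the circulating sugar of insects, as well as lipoproteins and storage proteins. Sugar that enters glycolysis can supply carbon for fatty acids, while the pentose phosphate pathway and malic enzyme supply the NADPH that fatty acid synthesis consumes. Mondo and Sugarbabe are transcription factors of the sugar response, and insulin and TOR signalling couple nutrient supply to growth.

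The values are read counts that the authors adjusted to a common library size, called normalized values here, and they compare one gene between libraries but not one gene with another. The reads recovered for the listed genes numbered 6916313 to 9239833 per HGD library and 8858121 to 9496778 per CGD library, and every listed gene had at least 1 read in each. The list of 8 fat body markers was at a mean log2 level of 17.11 to 17.31 on HGD, against 16.79 to 17.96 on CGD, and the larval serum protein Lsp2, which had the highest mean over the 6 libraries, had 712820, 1081500 and 973000 on HGD, against 535420, 509700 and 940880 on CGD. The first principal component, 63.2% of the variance, separated the diets, with scores of 34.4 to 41.5 on HGD, against -42.9 to -31.8 on CGD. HGD replicate 1 and CGD replicate 3 stood apart from their groups on the second component (13.2%), at -28.3 and -20.1. A set of 5 ribosomal RNA genes took 24.8% of the reads of HGD replicate 1, against 9.73% and 11.1% in the other HGD libraries and 13.98% to 16.4% on CGD. Storage protein genes and their receptors took 19.4%, 26.4% and 27.9% of the reads on HGD, against 23.1%, 25.6% and 34.4% on CGD, the highest share being that of CGD replicate 3. Dcr-2, which the transgene supplies, had 61475, 46746 and 59156 on HGD, against 41241, 35825 and 55804 on CGD, so both groups carried it (log2 fold change 0.35, SE 0.33, limma adjusted p = 0.464).

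A large part of the measured transcriptome differed between HGD and CGD, in both directions. At an adjusted p under 0.05, limma on log2(value + 1) called 1337 genes higher on HGD (14.1% of those tested) and 1132 lower (11.9%). Of the genes called higher, 573 changed by at least 1 on the log2 scale and 130 by at least 2, and of those called lower, 666 and 100 did. The diets did not overlap in 1332 of the 1337 genes called higher and in 1123 of the 1132 called lower. A lack of overlap given below for a called gene therefore adds little to its call. The plot of all genes shows that the largest changes were in genes of middle abundance, while the storage proteins at the right end moved little or varied between libraries. Over all 9500 genes the median log2 fold change was 0.01, and the median 95% interval reached 0.49 to either side. The balance between higher and lower calls depended on scaling. When each library was scaled to the same total, the median moved to -0.20 and the calls to 591 higher and 1164 lower. The count of calls fell to 1626 without HGD replicate 3, 1363 without CGD replicate 1 and 1337 without CGD replicate 2, and to 1007 in a fit without shared variance information.

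**Figure D1:**
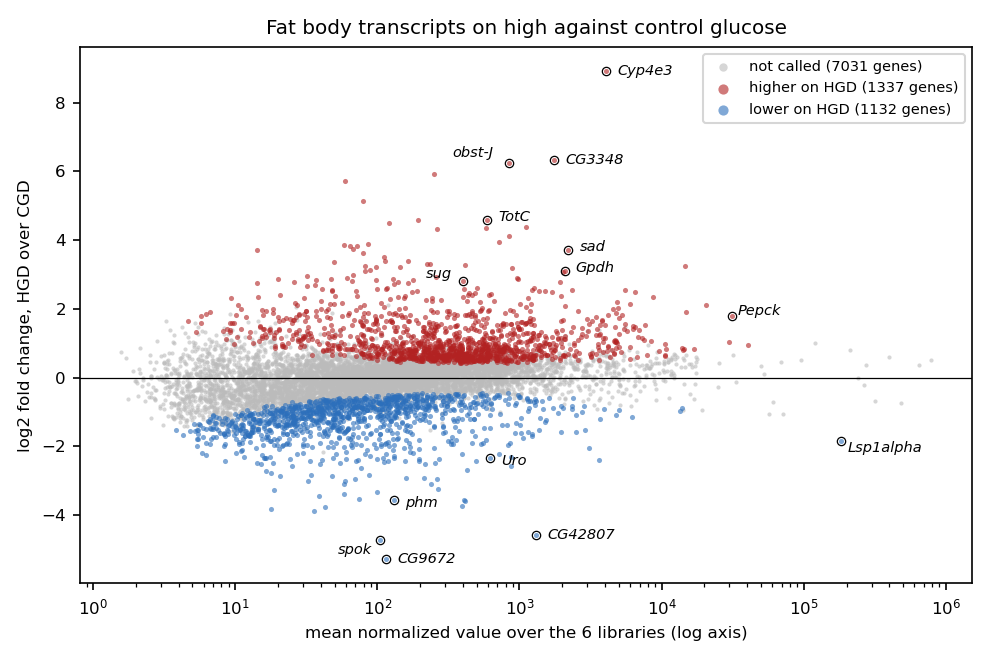
Log2 fold change of HGD over CGD (y axis) against the mean normalized value over the 6 libraries (x axis, log scale) for 9500 genes, with 1337 genes called higher in red, 1132 called lower in blue and the others in grey. Circles mark genes described in the text, from Cyp4e3 at 8.91 down to CG9672 at -5.28.

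Markers of other tissues moved with diet and are given here once for all results that follow. In bulk tissue, fewer cells of a type and less RNA per cell cannot be told apart. Of 18 larval muscle markers 16 were higher on HGD, and the mean log2 level of the list was 10.18 to 10.54 on HGD, against 8.39 to 9.23 on CGD. Myosin light chain Mlc2 had 9408, 11355 and 7256 on HGD, against 1671, 2400 and 986 on CGD, whereas the myosin heavy chain gene Mhc, the first of the list, had 4399, 7069 and 3198 on HGD, against 2375, 3772 and 2363 on CGD and did not pass (log2 fold change 0.74, SE 0.30, limma adjusted p = 0.0962). Hemocyte markers moved the other way, with 5 of 8 lower and a mean log2 level of 6.50 to 6.61 on HGD, against 7.40 to 8.05 on CGD. The hemocyte surface gene He had 16.63, 23.2 and 21.5 on HGD, against 192, 121 and 147 on CGD, with groups that did not overlap. Pxn, a matrix peroxidase on the same list, was instead higher, at 5678, 7102 and 6699 on HGD, against 1826, 1214 and 2712 on CGD. Of 11 midgut markers 6 were lower and 1, the protease gene Jon99Cii, was higher (mean log2 level 6.03 to 6.57 on HGD, against 7.11 to 7.79 on CGD). Of the 3 Malpighian tubule markers, Uro and Oatp58Db were lower, and of 5 imaginal disc markers 3 were lower and ap was higher. Without CGD replicate 1 or CGD replicate 2 limma called 0 disc markers lower, although 3 had an unadjusted p under 0.05 in each fit. Of 6 salivary gland markers, Sgs3 was the one called higher (16.7%, against 14.1% of all genes). The salivary list was at 9.61 to 10.05 on HGD, against 7.87 to 9.42 on CGD. Without CGD replicate 1 the salivary count was 4. Of 4 ring gland markers 1 was higher and 2 lower, and the list was lower without overlap, at 6.97 to 7.39 on HGD, against 7.82 to 8.36 on CGD. Of 5 epidermis and cuticle markers 1 was higher (20%, against 14.1% of all genes). The epidermis and cuticle list was at 7.05 to 7.18 on HGD, against 6.08 to 6.96 on CGD. The ovary marker tj, which was not called, was at 3.18 to 4.27 on HGD, against 2.03 to 3.10 on CGD, and the oenocyte marker, also not called, at 6.46 to 7.02 on HGD, against 6.31 to 6.79 on CGD. The tracheal list (6.65 to 7.07 on HGD, against 6.19 to 6.96 on CGD) and the neuronal list (7.24 to 7.67 on HGD, against 7.51 to 7.63 on CGD) overlapped between the diets, with 0 of 5 markers called by limma in each and 0 at an unadjusted p under 0.05. Every gene of the table had at least 1 read in each glucose library, so no measured marker could be at 0. Listed markers absent from the table could not be described. The ovary markers vas, nos, osk and bam were absent, which left tj as 1 of 5. Of 8 listed ring gland markers 4 were in the table, without dib, nvd, Akh and jhamt. With the muscle level as a covariate limma called 37 genes, 23 higher and 14 lower. The muscle level separates the diets completely in these libraries, so its part in the results below and that of diet cannot be told apart.

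**Figure D2:**
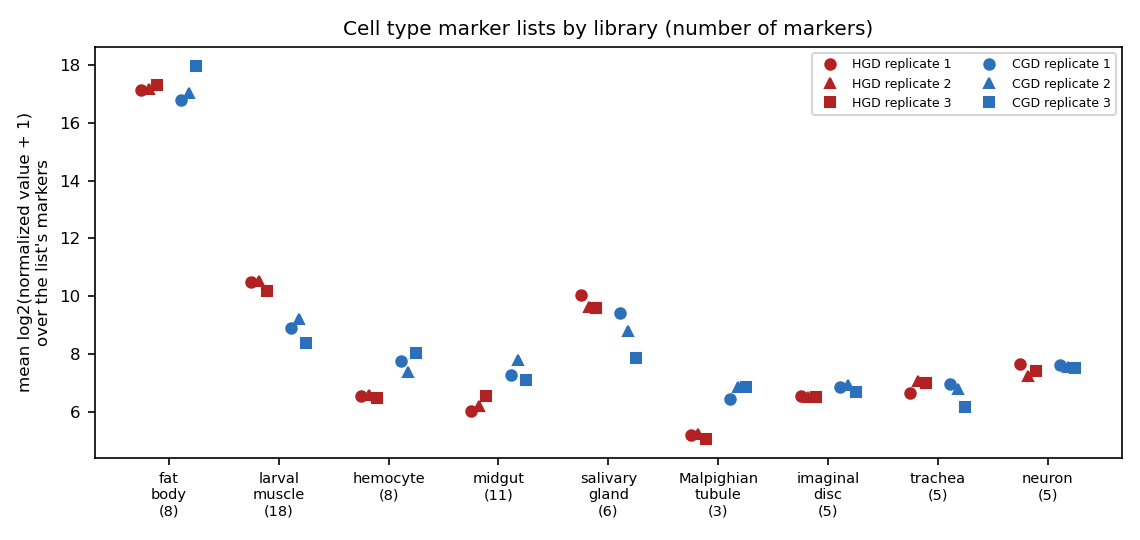
Mean log2(normalized value + 1) over the markers of each cell type list (y axis), HGD libraries in red to the left of CGD libraries in blue, one symbol shape per replicate number and the number of markers in brackets. The muscle list lay between 10.18 and 10.54 on HGD and between 8.39 and 9.23 on CGD, and of the other lists drawn the hemocyte, midgut, Malpighian tubule and imaginal disc lists were lower and the salivary gland list higher on HGD without overlap.

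The 15 largest rises, among called genes with a group mean of at least 50, ran from 3.88 to 8.91 on the log2 scale. Their HGD libraries were all above their CGD libraries, as the rule for choosing them required, which was so for 24.0% of all genes, while HGD was entirely below CGD for 20.8%. Cyp4e3, which encodes a cytochrome P450, came first (2L, 9747839 to 9750071 in the BDGP6.54 annotation), with 9822, 8952 and 5616 on HGD, against 11.0, 6.18 and 50.4 on CGD (log2 fold change 8.91, SE 0.59, limma adjusted p = 2.41e-05). The diets were far apart in every library, and among the low CGD values replicate 3 was highest. CG3348 (3R, 27291535 to 27292209) had 4833, 3487 and 2048 on HGD, against 35.0, 29.8 and 59.6 on CGD. The chitin-binding protein gene obst-J (3L, 20130451 to 20131743), which overlaps gig in the annotation, had 2495, 1245 and 1265 on HGD, against 17.03, 24.3 and 18.6 on CGD. TotC, a Turandot stress peptide gene, varied little within each diet, with 1060.4, 1193 and 1152 on HGD, against 56.8, 39.3 and 44.7 on CGD (log2 fold change 4.58, SE 0.17, limma adjusted p = 2.28e-06). Gpo-1 (2R, 15857752 to 15862755), the mitochondrial glycerophosphate oxidase, had 1432, 2476 and 891 on HGD, against 67.6, 86.2 and 98.9 on CGD (log2 fold change 4.12, SE 0.32, limma adjusted p = 5.9e-05). This enzyme and the cytosolic dehydrogenase Gpdh described below form the glycerophosphate shuttle. The poly(A) polymerase gene wisp, known from the female germline, had 1406, 912 and 1002 on HGD, against 40.6, 53.6 and 65.1 on CGD. The part of the ovary marker tj in this result, and that of the epidermis and cuticle list in obst-J, was not tested. The remaining rises of this size were in CG43402, CG17999, CG11898, Iris, CG16898, CG1774, CG14275, CG14752 and CG12105. The CGD values of CG17999 were 1.67, 0.715 and 1.099, so its fold change depends on the pseudocount. By gain in value rather than by fold, Pepck led the called genes, and CG43085, also among the 10 largest gains, had 48643, 14168 and 16877 on HGD, against 2385, 1592 and 3639 on CGD.

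The 15 largest falls ran from -5.28 to -3.10. CG9672 (X, 16705971 to 16706874) had 6.91, 4.03 and 2.92 on HGD, against 151, 351 and 171 on CGD (log2 fold change -5.28, SE 0.37, limma adjusted p = 3.09e-05). CG42807 (2R, 13570595 to 13572759) had 153, 97.7 and 73.3 on HGD, against 2526, 2166 and 2868 on CGD (log2 fold change -4.59, SE 0.25, limma adjusted p = 1.27e-05). In both, the highest HGD library was far below the lowest CGD library. The lysozyme gene LysB, a midgut marker that overlaps mwh in the annotation, had 6.97, 2.02 and 5.88 on HGD, against 50.1, 133 and 60.1 on CGD. Ecdysone synthesis genes and a putative sugar transporter were also among the 15 and are described with their groups. The others were CG33333, CG8664, CG32335, CG33346, CR43920, CG6839, CG6283, CG14332 and CG12115. By loss in value the storage protein Lsp1alpha led, with 54316, 66830 and 93399 on HGD, against 142850, 209840 and 535020 on CGD (log2 fold change -1.85, SE 0.57, limma adjusted p = 0.0395). Its groups did not overlap, but the CGD values spread widely, and the adjusted p was above 0.05 without HGD replicate 1, 2 or 3 or CGD replicate 2. CG15369, next among the losses that held in every leave-one-out fit, had 1074, 1051 and 1238 on HGD, against 4727, 4833 and 8838 on CGD (log2 fold change -2.39, SE 0.25, limma adjusted p = 0.000257).

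Genes at several steps of the route from sugar to stored fat were higher on HGD. Of 13 glycolysis genes 5 were higher and the other 8 were not called, with a median log2 fold change of 0.72 over the list. Pyruvate kinase, PyK, had 2232, 3740 and 2289.6 on HGD, against 1134, 1216 and 1241 on CGD (log2 fold change 1.16, SE 0.21, limma adjusted p = 0.00439), and phosphofructokinase, Pfk, had 602, 873 and 654 on HGD, against 363, 407 and 403 on CGD. The hexokinase gene Hex-C had 12.7, 30.2 and 18.6 on HGD, against 21.4, 16.9 and 19.6 on CGD, with overlapping groups. The glycolysis count was 2 without HGD replicate 2, CGD replicate 1 or CGD replicate 2 and 9 without CGD replicate 3. It was also 2 with total scaling. The list that joins the pentose phosphate pathway with NADPH supply moved further: 6 of 9 were higher, and the median was 1.04. Zw, the first enzyme of the pentose phosphate pathway, had 408, 519 and 295 on HGD, against 76.1, 70.4 and 93.5 on CGD (log2 fold change 2.31, SE 0.22, limma adjusted p = 0.00018). Its next step Pgd had 2766, 3925 and 2558 on HGD, against 760.3, 794 and 1395 on CGD. Malic enzyme, Men (3R, 12713103 to 12722442), had 10194, 13619 and 9185 on HGD, against 1447, 1506 and 3361 on CGD (log2 fold change 2.48, SE 0.32, limma adjusted p = 0.000824). For all 3 genes, as for nearly all called higher, the lowest HGD library exceeded the highest CGD library, which was CGD replicate 3.

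Of 12 genes of fatty acid synthesis 7 were higher (median 0.74). Acetyl-CoA synthase, AcCoAS, had 15511, 16559 and 11381 on HGD, against 2019, 2317 and 4635 on CGD (log2 fold change 2.36, SE 0.31, limma adjusted p = 0.000959). Acetyl-CoA carboxylase, ACC, the committed step, had 7043, 9081 and 5751 on HGD, against 1370.4, 1602 and 2629 on CGD (log2 fold change 1.997, SE 0.27, limma adjusted p = 0.00104). Fatty acid synthase, listed as CG3523 and named FASN1 in RefSeq, had 18902, 30649 and 20457 on HGD, against 4419, 5548 and 8939.8 on CGD (log2 fold change 1.92, SE 0.31, limma adjusted p = 0.00253). These 3 consecutive steps rose between 1.92 and 2.36 on the log2 scale, and a further fatty acid synthase, v(2)k05816 (FASN2), rose by 2.05 at lower values. Of 9 glycerolipid assembly genes 4 were higher (median 1.2). The largest rise was in Gpdh (2L, 5943643 to 5948968), which makes the glycerol backbone from a glycolytic intermediate, with 3582, 4895 and 2658 on HGD, against 343, 353 and 622 on CGD (log2 fold change 3.09, SE 0.28, limma adjusted p = 0.000135). The acyltransferase fu12 (Agpat2) had 983, 882 and 591 on HGD, against 103, 138 and 218 on CGD. The phosphatase Lpin had 1678, 2041 and 1549 on HGD, against 585, 678 and 890.3 on CGD, and mdy, the acyltransferase that completes triglyceride, had 658, 509.8 and 607 on HGD, against 178, 165 and 353 on CGD. The 4 called genes so cover the supply of the backbone, an acylation, the removal of phosphate and the last acylation. In mdy and in most of these genes CGD replicate 3 lay closest to HGD, as the plot of metabolic genes by library shows.

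**Figure D3:**
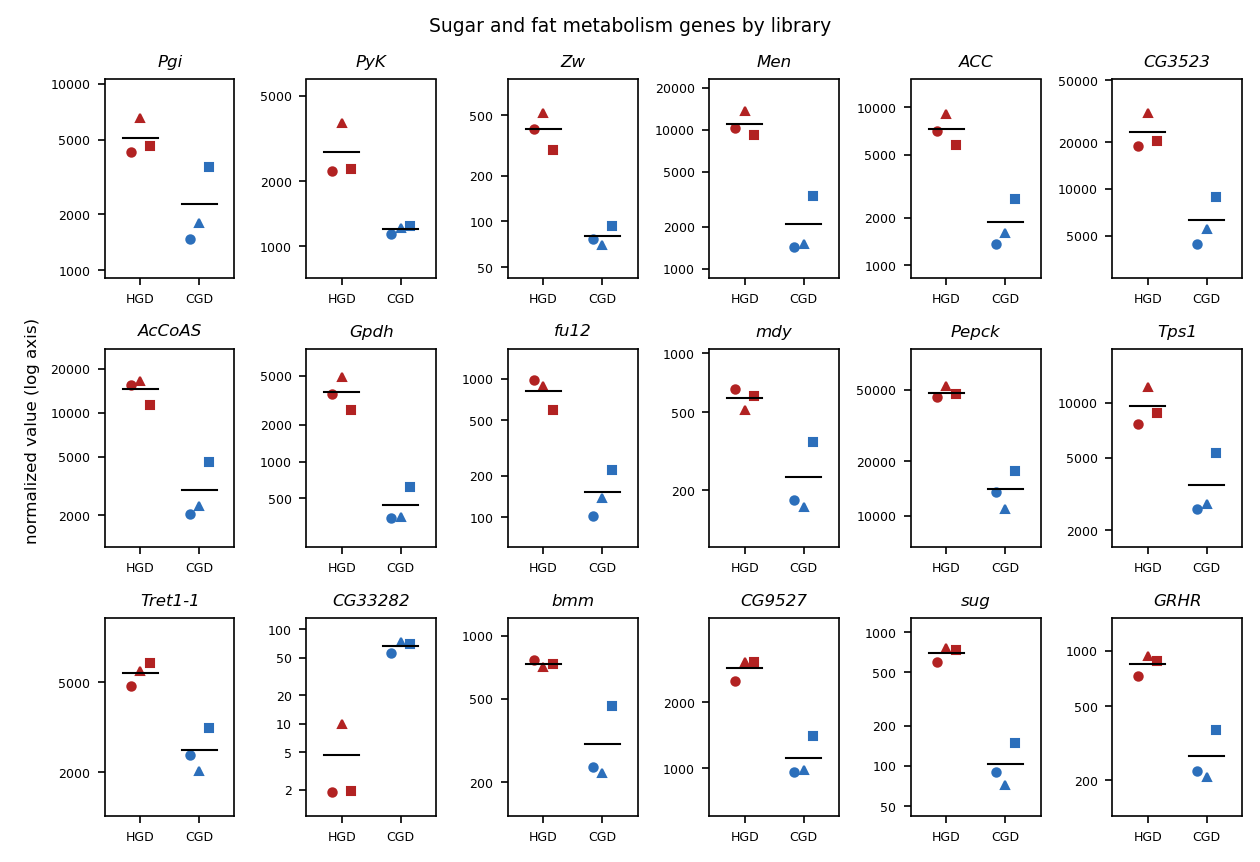
Normalized values (y axis, log scale) of 18 genes of sugar and fat metabolism in the 3 HGD libraries (red, left) and the 3 CGD libraries (blue, right), with circle, triangle and square for replicates 1, 2 and 3 and a bar at the mean. The groups do not overlap in any panel, only CG33282 was lower on HGD, and CGD replicate 3 (square) was the highest CGD library in most panels.

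Of 11 lipase and lipid droplet genes 6 were higher and the other 5 were not called (median 0.62). The triglyceride lipase brummer, bmm, had 764, 709 and 734 on HGD, against 237, 221 and 459.9 on CGD (log2 fold change 1.34, SE 0.25, limma adjusted p = 0.00522). Seipin, a protein of droplet formation, had 162, 218 and 194 on HGD, against 77.0, 76.1 and 69.7 on CGD. The perilipin Lsd-1 had 8739, 9254 and 11658 on HGD, against 3501, 4088 and 6115 on CGD (log2 fold change 1.14, SE 0.25, limma adjusted p = 0.00957; adjusted p = 0.0515 without CGD replicate 1). Of 17 fatty acid oxidation genes 11 were higher and the other 6 were not called (median 0.88). The peroxisomal acyl-CoA oxidase gene CG9527 (Acox3) had 2500.5, 3053 and 3052 on HGD, against 964, 983 and 1401 on CGD. The mitochondrial trifunctional protein gene Mtpalpha had 4669, 6572 and 4894 on HGD, against 2184, 2131 and 2952 on CGD, and the thiolase yip2 had 6734, 6980.4 and 5451 on HGD, against 2854, 2657 and 3475 on CGD. The carnitine transferase whd, which admits fatty acids to mitochondria, did not pass, with 2045, 2918 and 2873 on HGD, against 1366, 1189 and 2229 on CGD (log2 fold change 0.75, SE 0.25, limma adjusted p = 0.0542). The oxidation count was 6 without HGD replicate 2, CGD replicate 1 or CGD replicate 2, and 7 without HGD replicate 3.

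Genes that build glucose, trehalose and glycogen had the highest share of rises of the metabolic lists, with 10 of 14 higher and a median of 1.26. Pepck (2R, 18536767 to 18539416), the entry to gluconeogenesis, gained more normalized counts than any other called gene, with 45184, 51999 and 47236 on HGD, against 13558, 10915 and 17709 on CGD (log2 fold change 1.80, SE 0.28, limma adjusted p = 0.00209). Its neighbour in the family CG10924 (Pepck2) had 6093, 6158 and 4963 on HGD, against 1479, 1572 and 2545 on CGD. Trehalose phosphate synthase, Tps1, had 7646, 12237 and 8755 on HGD, against 2620.1, 2776 and 5275 on CGD (log2 fold change 1.47, SE 0.30, limma adjusted p = 0.00721). CG5177, of the same list, had 356, 353 and 319 on HGD, against 155, 107 and 96.0 on CGD. Each of these 4 genes had a CGD maximum below its HGD minimum, and the list's count stayed between 8 and 11 with single libraries left out. Sugar transport and polyol genes moved both ways, with 4 of 15 higher and 4 lower (7 higher without CGD replicate 3). The trehalose transporter Tret1-1 had 4801, 5613 and 6111 on HGD, against 2386, 2036 and 3146 on CGD (log2 fold change 1.14, SE 0.21, limma adjusted p = 0.00422), and CG1213 had 68.0, 168 and 130.1 on HGD, against 23.1, 18.6 and 16.4 on CGD. CG33282 (2L, 3327903 to 3329792), which is annotated as a putative sugar transporter, had 1.91, 10.1 and 1.93 on HGD, against 56.2, 74.0 and 69.6 on CGD (log2 fold change -3.88, SE 0.49, limma adjusted p = 0.000752). CG7882 had 71.1, 96.7 and 86.1 on HGD, against 319, 260 and 218 on CGD. The sorbitol dehydrogenase gene Sodh-1 had 177, 176 and 329.7 on HGD, against 586, 667 and 1402 on CGD (log2 fold change -1.91, SE 0.34, limma adjusted p = 0.00421). Of these 5 called genes 2 were above and 3 below on HGD without overlap, as was so for nearly all called genes.

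**Figure D4:**
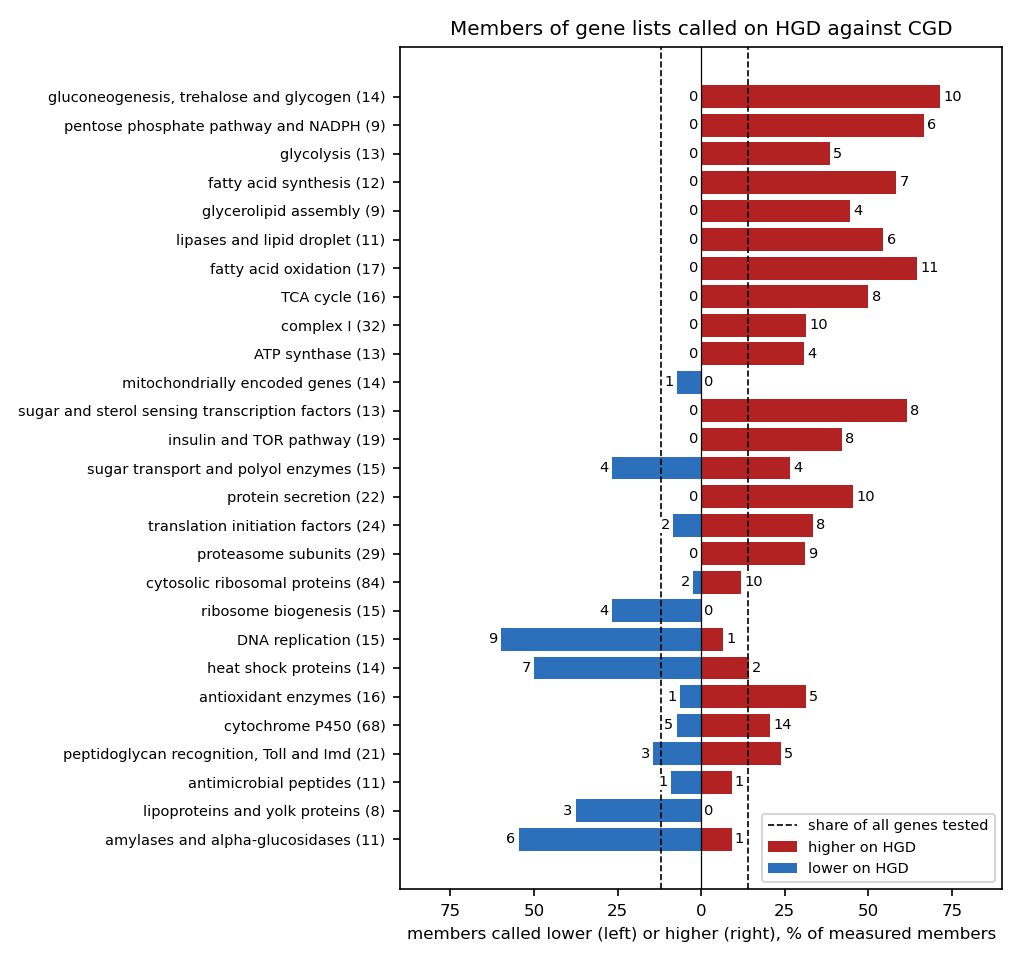
Share of measured members called higher on HGD (red, right) or lower (blue, left) in each gene list, in percent, with the number called beside each bar and the number measured in brackets. Dashed lines mark the shares over all 9500 genes, 14.1% higher and 11.9% lower, and the metabolic lists at the top exceed the first. DNA replication, heat shock, amylase, lipoprotein and yolk, sugar transport and polyol, ribosome biogenesis, and peptidoglycan recognition, Toll and Imd lists exceed the second.

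Transcription factors of sugar sensing were also higher. Of 13 listed sugar and sterol sensing factors 8 were higher (median 0.61). Sugarbabe, sug (2R, 12924567 to 12930644), had 596, 761 and 733 on HGD, against 89.8, 71.5 and 148 on CGD (log2 fold change 2.80, SE 0.25, limma adjusted p = 0.000128). Mondo, listed as Mio (2L, 21286078 to 21310050), had 2022, 1299.8 and 1695 on HGD, against 459, 521 and 689 on CGD (log2 fold change 1.58, SE 0.21, limma adjusted p = 0.00096). The nuclear receptor Hr96 had 165, 178 and 181 on HGD, against 80.8, 90.8 and 105 on CGD, and the hypoxia factor sima had 1262, 1186 and 1186 on HGD, against 607, 675 and 716 on CGD. The diets did not overlap in these 4 factors, as in nearly all called genes, and sug was the furthest apart. The count of this list was 5 without CGD replicate 1 or CGD replicate 2 and 3 with total scaling. In the insulin and TOR pathway 8 of 19 genes were higher (median 0.42). The kinase S6k had 618, 463 and 457 on HGD, against 232, 219 and 241 on CGD (log2 fold change 1.14, SE 0.16, limma adjusted p = 0.00142), and the lipid kinase subunit Pi3K92E had 825, 684 and 711 on HGD, against 350.4, 339.8 and 409 on CGD (log2 fold change 1.01, SE 0.15, limma adjusted p = 0.00174). Thor, a translational repressor and FOXO target, had 1514, 1337 and 1478 on HGD, against 725, 768 and 993 on CGD. Kinases that carry the insulin signal and a target that insulin is known to repress were thus both higher. For this list the count was likewise 5 with CGD replicate 1 or CGD replicate 2 left out, and it was 3 with total scaling.

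Among 14 genes of fat body signals, which include 1 receptor, 2 were higher (14.3%, against 14.1% of all genes, and 4 without CGD replicate 3) and 1 lower (7.14%, against 11.9%). CCHa2, a nutrient-dependent peptide that acts on insulin-producing neurons, had 1896, 1271 and 1732 on HGD, against 494, 509 and 641 on CGD (log2 fold change 1.56, SE 0.19, limma adjusted p = 0.000638). The receptor of adipokinetic hormone, listed as GRHR (AkhR), had 727, 933 and 882 on HGD, against 224, 207 and 374 on CGD (log2 fold change 1.697, SE 0.23, limma adjusted p = 0.000996). Adipokinetic hormone is the insect counterpart of glucagon. Both genes rose without overlap between the diets. Gbp, a growth-blocking peptide, was lower (log2 fold change -0.61, SE 0.18, limma adjusted p = 0.036), but not without HGD replicate 1 or 2 or CGD replicate 1 or 2. The insulin-like peptide Ilp6 had 1931, 1337 and 2440.3 on HGD, against 1065, 1251 and 1363 on CGD, with groups that overlapped narrowly (log2 fold change 0.60, SE 0.22, limma adjusted p = 0.0763).

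A part of the nuclear genes of mitochondria was called higher, by smaller steps. Of 16 genes of the TCA cycle 8 were higher (median 0.55), among them subunits of succinyl-CoA synthetase and isocitrate dehydrogenase. The succinyl-CoA synthetase gene skap (ScsbetaA) had 3336, 3476 and 3669.7 on HGD, against 1753, 1410.1 and 1828 on CGD (log2 fold change 1.08, SE 0.17, limma adjusted p = 0.00201), and the isocitrate dehydrogenase subunit CG5028 (Idh3g) had 475, 439 and 438 on HGD, against 211, 225 and 268 on CGD. Citrate synthase, kdn, had 214, 365 and 239.6 on HGD, against 192, 261 and 173 on CGD and overlapped. Of 32 complex I subunits 10 were higher (median 0.38), with ND23 at 338, 302 and 246 on HGD, against 161, 140.2 and 175 on CGD, and of 13 ATP synthase subunits 4 were higher (median 0.39). These calls were less stable. Complex I had 4 without HGD replicate 2, 5 without HGD replicate 3 and 2 without CGD replicate 1 or CGD replicate 2, and ATP synthase had 2 without HGD replicate 2. Without CGD replicate 1 or CGD replicate 2 limma called 0 ATP synthase subunits, while 4 and 5 of them had an unadjusted p under 0.05. With total scaling both lists had 0 calls by limma, against 5 complex I and 3 ATP synthase members at an unadjusted p under 0.05 in that fit. Genes encoded in the mitochondrial genome had a negative median, -0.80 over 14 genes. Only mt:ND1 was called, with 4053, 3407 and 2851 on HGD, against 5958, 6318 and 7599 on CGD (log2 fold change -0.95, SE 0.20, limma adjusted p = 0.00845). The mitochondrial ribosomal RNA gene mt:lrRNA had 355790, 229500 and 159180 on HGD, against 415780, 341060 and 390850 on CGD, with HGD replicate 1 within the CGD range. Without HGD replicate 1, 9 of the 14 were called lower, and with total scaling 8 were.

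Some genes of protein synthesis and turnover were higher, by small amounts. Of 24 translation initiation factors 8 were higher (33.3%, against 14.1% of all genes) and 2 lower (8.33%, against 11.9%), with a median of 0.34. The eIF3 subunit eIF3-S9 had 5338, 5463 and 5579.8 on HGD, against 2839, 2815 and 3241 on CGD (log2 fold change 0.88, SE 0.16, limma adjusted p = 0.00479). Of 84 cytosolic ribosomal proteins 10 were higher, 11.9% of the list and below the 14.1% over all genes, and 2 were lower. RpL41 was one that was lower, with 10668, 8568 and 10002 on HGD, against 18404, 15829 and 20392 on CGD, although not without HGD replicate 2, HGD replicate 3 or CGD replicate 1. The ribosomal count was 19 without HGD replicate 1, 3 without HGD replicate 3, and 1 without CGD replicate 1. Without HGD replicate 2 or CGD replicate 2 limma called 0 ribosomal proteins higher, while 10 and 7 had an unadjusted p under 0.05. Of 29 proteasome subunits 9 were higher and of 21 aminoacyl-tRNA synthetases 7 were. Of 22 protein secretion genes 10 were higher, among them the coat subunit alphaCop with 1734, 2651 and 2033 on HGD, against 1011, 961 and 1282 on CGD. The translation factor count was 5 without HGD replicate 3 and 3 without CGD replicate 1 or CGD replicate 2. The proteasome count was 5 without HGD replicate 2 or 3 and 2 without CGD replicate 1 or 2. The secretion count was 2 without HGD replicate 2 or 3 and 1 without CGD replicate 1 or 2, and the synthetase count 4 without HGD replicate 2. With CGD replicate 1 left out the synthetase count was 2, and with CGD replicate 2 left out it was 3. With total scaling the higher counts were 2 for initiation factors and 1 each for proteasome and secretion. In the same fit limma called 0 ribosomal proteins and 0 synthetases higher, while 5 and 3 had an unadjusted p under 0.05.

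DNA replication genes were lower on HGD in 9 of 15 cases, with 1 higher and a median of -0.58. Fat body cells of the larva copy their genome without dividing. The sliding clamp mus209 (PCNA) had 96.1, 89.7 and 65.5 on HGD, against 207, 186 and 149 on CGD (log2 fold change -1.11, SE 0.20, limma adjusted p = 0.0046). The helicase subunit Mcm6 had 138, 159 and 131 on HGD, against 228, 242 and 234 on CGD, and the ribonucleotide reductase subunit RnrS had 155.8, 178 and 169 on HGD, against 293, 273 and 242 on CGD. All 3 separated the diets, as nearly all called genes did, and RnrS lost its call without CGD replicate 1 or CGD replicate 2. The list's count was 4 without HGD replicate 3 and 2 without CGD replicate 1 or CGD replicate 2. Of 15 ribosome biogenesis genes 4 were lower (median -0.38). The nucleolar pseudouridine synthase Nop60B had 283, 304 and 269 on HGD, against 539, 482 and 394 on CGD (log2 fold change -0.71, SE 0.16, limma adjusted p = 0.0116). Its call was lost without CGD replicate 1 or CGD replicate 2, where the list's count was 0 by limma and 3 and 5 members, in that order, had an unadjusted p under 0.05. The list's count was 1 without HGD replicate 3. Myc, listed as dm, did not pass, with 678, 367 and 417 on HGD, against 381, 354 and 308 on CGD. Imaginal discs hold dividing cells, 3 of their 5 markers were lower beside these lists, and their part was not tested.

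Single genes of the steroid hormone route changed in opposite directions. Of 6 genes of ecdysone synthesis and inactivation 2 were lower (33.3%, against 11.9% of all genes) and 1 higher (16.7%, against 14.1%). The P450 gene spok (3R, 3322810 to 3354486) had 14.8, 2.03 and 6.84 on HGD, against 269, 225 and 114 on CGD (log2 fold change -4.73, SE 0.54, limma adjusted p = 0.000472), and the P450 gene phm (X, 18685766 to 18688433) had 20.5, 26.2 and 13.7 on HGD, against 270.5, 252 and 206 on CGD (log2 fold change -3.56, SE 0.25, limma adjusted p = 3.09e-05). These enzymes act in the ring gland, the larval source of ecdysone. The P450 gene sad (3R, 11877235 to 11879754), which overlaps CG6962 and acts later in the same route, had 4212, 4009 and 4029 on HGD, against 416, 349 and 209 on CGD (log2 fold change 3.71, SE 0.23, limma adjusted p = 2.4e-05). The HGD libraries agreed closely in sad, and all lay above CGD. All 3 genes are on the ring gland marker list, which was at a mean log2 level of 6.97 to 7.39 on HGD, against 7.82 to 8.36 on CGD, and its part was not tested. Of 18 ecdysone response genes 2 were higher and 2 lower, 11.1% each and below the 14.1% and 11.9% over all genes. The ecdysone-inducible gene ImpE2 had 186, 237 and 309 on HGD, against 1464, 1994 and 1024 on CGD (log2 fold change -2.59, SE 0.26, limma adjusted p = 0.000226), and ImpE3 had 31.0, 36.3 and 30.3 on HGD, against 85.3, 94.4 and 53.6 on CGD. The higher genes were ftz-f1 and the receptor EcR, with log2 fold changes of 0.63 and 0.51. Without HGD replicate 3, CGD replicate 1 or CGD replicate 2 limma called 0 of the response genes higher, although 2 to 3 had an unadjusted p under 0.05. Of 10 juvenile hormone genes 1 was lower (10%, against 11.9% of all genes) and 3 were higher (30%, against 14.1%). The hormone receptor gce was higher, with 453, 511 and 508 on HGD, against 244, 276 and 263 on CGD (log2 fold change 0.91, SE 0.14, limma adjusted p = 0.00215). Also higher were the epoxide hydrolases Jheh1 and Jheh3, with log2 fold changes of 1.55 and 1.21.

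Several small heat shock protein genes were lower on HGD. Of 14 heat shock genes 7 were lower (50%, against 11.9% of all genes) and 2 higher (14.3%, against 14.1%), with a median of -0.36. Hsp26 (3L, 9376418 to 9377427) had 381, 287 and 407 on HGD, against 1640.1, 1285 and 1149 on CGD (log2 fold change -1.92, SE 0.19, limma adjusted p = 0.00022). Hsp27 had 583, 408 and 617 on HGD, against 1356, 1576 and 1092 on CGD (log2 fold change -1.33, SE 0.20, limma adjusted p = 0.00201), and Hsp67Bc had 78.4, 61.5 and 58.7 on HGD, against 302, 371 and 135 on CGD. These small chaperones were lower in every HGD library, whereas Hsp83, the fly Hsp90, had 12557, 12497 and 10418 on HGD, against 9616, 9768 and 7600.3 on CGD and did not pass. The count of lower genes was 4 without HGD replicate 2 or CGD replicate 1. Of 15 genes of the unfolded protein response 2 were higher (13.3%, against 14.1% of all genes), Xbp1 with 5814, 5159 and 5316 on HGD, against 2719.6, 2537 and 3527 on CGD (log2 fold change 0.90, SE 0.19, limma adjusted p = 0.00777) and Ire1 with a log2 fold change of 0.45. The Ire1 call was lost without any one library but CGD replicate 3. Of 16 antioxidant genes 5 were higher (31.2%, against 14.1% of all genes) and 1 lower (6.25%, against 11.9%). The glutathione synthesis enzyme Gclc had 307, 311 and 321 on HGD, against 168, 155 and 105 on CGD (log2 fold change 1.15, SE 0.19, limma adjusted p = 0.00295), while the peroxiredoxin Jafrac2 had 50.6, 62.5 and 73.4 on HGD, against 150, 129 and 134 on CGD. The count of 5 was 3 without HGD replicate 1 or 2 and 2 without HGD replicate 3, CGD replicate 1 or CGD replicate 2, and 9 without CGD replicate 3. Of 10 genes of metal storage and transport 3 were higher and 3 lower. The ferritin subunit Fer1HCH, an iron store, had 6397, 5902 and 6641 on HGD, against 2584, 2965 and 3697 on CGD, whereas the metallothionein MtnD had 24.5, 16.1 and 21.5 on HGD, against 101, 62.1 and 135 on CGD and MtnA had 782, 335 and 373 on HGD, against 1478, 1105 and 2285 on CGD.

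Of 11 antimicrobial peptides 1 was higher and 1 lower, with a median of 0.00, and the share of 9.09% each was below the 14.1% and 11.9% over all genes. The higher one, the attacin AttC, had 293, 246 and 263 on HGD, against 129, 113 and 235 on CGD (log2 fold change 0.82, SE 0.25, limma adjusted p = 0.0409) and kept its call only without CGD replicate 3 among the fits that left out a library. The drosomycin-like peptide dro5 had 23.2, 39.3 and 48.0 on HGD, against 149, 341 and 94.1 on CGD (log2 fold change -2.23, SE 0.43, limma adjusted p = 0.00585). Diptericin, Dpt, had 213, 13.1 and 19.4 on HGD, against 47.7, 72.1 and 111 on CGD, with overlapping groups. Of 21 genes of peptidoglycan recognition, Toll and Imd 5 were higher (23.8%, against 14.1% of all genes) and 3 lower (14.3%, against 11.9%). PGRP-SC2, an amidase that removes peptidoglycan, had 1629, 2215 and 3169 on HGD, against 443, 384 and 348 on CGD (log2 fold change 2.53, SE 0.23, limma adjusted p = 0.000143), and PGRP-SB1 had 34.2, 30.2 and 53.9 on HGD, against 87.9, 139 and 134 on CGD. The prophenoloxidase gene PO45 (PPO2), known from crystal cells of the blood, had 435, 672 and 662 on HGD, against 1683, 1422 and 2437 on CGD (log2 fold change -1.64, SE 0.24, limma adjusted p = 0.00154). It fell as did the hemocyte list, whose part was not tested. Of 4 immune-induced peptides 3 were higher, and CG16836 (BomT2), which kept its call whichever library was left out, had 282, 81.7 and 254 on HGD, against 33.7, 9.56 and 9.99 on CGD. Without HGD replicate 3 the count was 1, and it was 2 without HGD replicate 1, CGD replicate 2 or CGD replicate 3. The count of 5 in the Toll and Imd list was 2 without HGD replicate 2, CGD replicate 1 or CGD replicate 2, and 1 without HGD replicate 3.

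Single detoxification genes changed in each direction. The share of lower calls was near or below that of all genes for cytochrome P450 genes and glutathione S-transferases. Of 7 UDP-glycosyltransferases, limma called 2 lower (28.6%, against 11.9% of all genes) and 0 higher. Of 68 measured cytochrome P450 genes 14 were higher (20.6% of the list, against 14.1% of all genes) and 5 lower (7.35%, against 11.9%). Beside Cyp4e3, Cyp4d14 had 828, 839 and 652 on HGD, against 119, 109 and 226 on CGD (log2 fold change 2.42, SE 0.26, limma adjusted p = 0.000334). Cyp12a4 was lower, with 184, 150.1 and 143 on HGD, against 489, 512 and 685 on CGD (log2 fold change -1.81, SE 0.18, limma adjusted p = 0.00022), as was Cyp28d1, with 512, 492 and 681 on HGD, against 1470.4, 1581 and 2604 on CGD. The higher count was 9 without CGD replicate 1. Of 16 glutathione S-transferases 3 of the epsilon class (GstE7, GstE8 and GstE9) were higher (18.8%, against 14.1% of all genes). GstD3 and GstD10 were lower (12.5%, against 11.9%). GstE9 had 414, 412 and 301 on HGD, against 64.9, 91.4 and 145 on CGD, and GstD3 had 30.8, 30.2 and 29.3 on HGD, against 145, 132 and 92.8 on CGD with HGD values almost equal. GstE and GstD genes lie in clusters of near copies, so reads may be divided between them.

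Genes of nitrogen and amino acid handling were called in both directions. Of 11 genes of nucleotide synthesis and urate 1 was higher and 1 lower (9.09% each, below the 14.1% and 11.9% over all genes). Of 14 one-carbon, serine and methionine genes 4 were higher (28.6%) and 1 lower (7.14%). Of 9 amino acid transporters 2 were higher (22.2%) and 1 lower (11.1%, against 11.9% of all genes). The transporter count of 2 was 1 without HGD replicate 2 or 3 or CGD replicate 1 or 2. Urate oxidase, Uro (2L, 7780085 to 7781415), which degrades urate and is known from the Malpighian tubule, had 165, 249 and 196 on HGD, against 838, 942 and 1334 on CGD (log2 fold change -2.34, SE 0.22, limma adjusted p = 0.000143). The pyrimidine synthesis gene r had 1214, 2140 and 1410.3 on HGD, against 518, 507 and 479 on CGD (log2 fold change 1.62, SE 0.21, limma adjusted p = 0.000794). The serine synthesis phosphatase aay, which overlaps CG3967, had 1889, 1713 and 1302 on HGD, against 285, 280.3 and 605 on CGD (log2 fold change 2.15, SE 0.29, limma adjusted p = 0.00104). The folate enzyme Nmdmc had 225, 171 and 186 on HGD, against 346, 392 and 465 on CGD. All 4 separated the diets, as nearly all called genes did. The Malpighian tubule list, which holds Uro, was at 5.08 to 5.23 on HGD, against 6.46 to 6.87 on CGD, and its part was not tested. CG4991, on the list of amino acid transporters, had 337, 292 and 313 on HGD, against 40.9, 36.2 and 53.2 on CGD (log2 fold change 2.84, SE 0.19, limma adjusted p = 2.41e-05).

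Amylase genes and some yolk and carrier protein genes were lower. Of 11 amylases and alpha-glucosidases 6 were lower (54.5%, against 11.9% of all genes) and 1 higher (9.09%, against 14.1%), with a median of -1.12. The near-identical amylase genes Amy-p and Amy-d were both lower, and reads of the pair may be shared. Amy-p had 4.50, 3.03 and 6.86 on HGD, against 33.8, 24.6 and 25.1 on CGD, and Amy-d had 3.08, 3.03 and 4.90 on HGD, against 35.5, 28.7 and 24.1 on CGD. Mal-A6 had 466, 687 and 762 on HGD, against 1501, 1332 and 1444 on CGD (log2 fold change -1.19, SE 0.20, limma adjusted p = 0.00272). The amylase genes are also midgut markers, and the midgut list was at 6.03 to 6.57 on HGD, against 7.11 to 7.79 on CGD. The lower count was 3 without HGD replicate 2 or CGD replicate 2, and 4 without HGD replicate 3. Among 8 lipoprotein and yolk genes 3 were lower. The yolk protein gene Yp3 had 24.2, 68.5 and 94.98 on HGD, against 254, 188 and 556 on CGD (log2 fold change -2.44, SE 0.50, limma adjusted p = 0.00769), whereas apolipophorin, Rfabg, had 64950, 33167 and 36490 on HGD, against 48563, 58471 and 121450 on CGD and overlapped. Odorant-binding proteins, a family of secreted carriers, had 4 of 12 lower (33.3%, against 11.9% of all genes) and 1 higher (8.33%, against 14.1%). Obp44a was lower, with 327, 495 and 440.1 on HGD, against 1116, 1290 and 860.3 on CGD. Obp49a was the one that was higher, with 52.9, 45.4 and 155.7 on HGD, against 7.24, 10.2 and 9.78 on CGD. Of further storage genes of the fat body, Lsp1beta had 399600, 498810 and 465070 on HGD, against 183370, 254830 and 579090 on CGD, and Fbp1 had 252870, 324410 and 533980 on HGD, against 523380, 529280 and 736060 on CGD. Neither passed, and in Lsp1beta CGD replicate 3 lay above all HGD libraries while the other CGD libraries lay below them.

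The response to glucose was last set against that to fructose, HFD against CFD, which has controls of its own. The difference between the 2 responses, tested in all 12 libraries, was called in 0 of 9500 genes by limma (0% called) and in 0 by limma-voom on recovered reads. In these fits 408 and 392 genes had an unadjusted p under 0.05. Both counts are a smaller share of the genes than the 0.05 that would pass without any difference. The median 95% interval of a difference reached 0.67 to either side. HFD replicate 2 was shallow, with 3484911 reads in the listed genes, against 6916313 to 11134953 in the other libraries. Its median gene had 32 reads. With HFD replicate 2 left out limma again called 0 genes, and 280 had an unadjusted p under 0.05. CG6602, whose diets did not overlap, had 44.9, 72.5 and 55.7 on HGD, against 9.19, 5.29 and 5.49 on CGD. Its log2 fold change was 2.95 with glucose and 0.98 with fructose, a difference of 1.97, SE 0.79, unadjusted p = 0.0264, limma adjusted p = 0.934. Among genes picked after their values were seen, Uro had -2.34 with glucose and -1.11 with fructose (-1.23, SE 0.44, unadjusted p = 0.0139, limma adjusted p = 0.934), and Hsp26 had -1.92 and -0.998 (-0.92, SE 0.48, unadjusted p = 0.0769, limma adjusted p = 0.934). Cyp4e3 had 8.91 and 8.34 (0.58, SE 0.76, unadjusted p = 0.464, limma adjusted p = 0.941). Oatp58Db, of the same tubule marker list as Uro, had -1.68 and -0.39 (-1.29, SE 0.33, unadjusted p = 0.00163, limma adjusted p = 0.934). The muscle marker Mlc2 had 2.54 and 1.15 (1.39, SE 0.50, unadjusted p = 0.0144, limma adjusted p = 0.934). The part of these tissues was not tested. IM3, an immune-induced peptide, instead rose more with fructose, 2.58 and 5.12 (-2.54, SE 0.94, unadjusted p = 0.0174, limma adjusted p = 0.934). Each of these differences missed the threshold over all genes.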

How the data were processed

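Total RNA of larval fat bodies was depleted of ribosomal RNA and sequenced on an Illumina instrument. Cufflinks 1.1.0, Bowtie 0.12.7 and TopHat 1.3.2 are named in the processing notes of the submitters, with build dm3. The study's methods instead name later versions of TopHat and Bowtie, an Ensembl build and counting with HTSeq, and this conflict could not be settled. No source used here gives the strand setting of the counting, and genes that overlap or share near-identical copies may share reads. The authors deposited 1 table of 9500 genes with normalized values (unit signal), which are read counts adjusted to a common library size within each sugar and are not whole. Inverting that adjustment, with a dispersion of 0.0385 for glucose, gave whole reads that returned every glucose value within 0.0001, relative or absolute. Of the gene IDs, 9073 matched the BDGP6.54 annotation, which gave positions (chromosome, start and end). Unused columns with values per sample numbered 0.

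HGD was compared with CGD by limma 3.58.1 (R 4.3.3) with a mean-dependent prior variance on log2(value + 1), 3 libraries each, and Benjamini-Hochberg adjustment over 9500 genes. Genes with an adjusted p under 0.05 were called. Fold changes are on the log2(value + 1) scale, which understates low genes, and log2 fold changes are HGD over CGD. The difference from the fructose response was fitted in all 12 libraries. Gene and marker lists (50 and 13) were described by counts and medians, without list tests. Members and lists were chosen with earlier results of these data known. Genes named were Dcr-2, InR and CG6602, the 15 largest rises and 15 largest falls among called genes whose groups were apart and whose higher group mean was at least 50, the 10 largest gains and 10 largest losses in value, the first member and up to 4 called members with the smallest adjusted p of each list, and the 5 most abundant genes. In data simulated for this comparison on 9500 genes, 74 of 100 genes changed 2-fold and 96 of 100 changed 4-fold were called, as were 10 of 9300 unchanged genes. The simulation gave every gene the same dispersion and drew libraries independently. Its rates therefore do not carry over to genes or libraries of larger spread. Alternatives covered scaling, filter, pseudocount, limma-voom on recovered reads, a replicate block, fitting all libraries, unshared variances, a muscle covariate and leaving out each library. Figures were drawn with matplotlib 3.10.9.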

Additional observations from a re-analysis of the deposited data

How the results depend on the processing

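The count of 2469 genes called kept within 1.5 times under median of ratios scaling (2472), total scaling (1755), a minimum mean of 20 (2258), pseudocounts of 0.1 and 5 (2449 and 2489), limma-voom (2456) and a fit of all 12 libraries (2823). It moved to 1007 without variance sharing and to 37 with the muscle marker level as a covariate, 29 of them among the 2469. The muscle level is confounded with diet, and the cause was not tested. With single libraries left out the count ran from 1337 (without CGD replicate 2) to 2662 (without CGD replicate 3). The difference between the glucose and fructose responses was called by limma in 0 genes in all of its fits.

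Same-numbered libraries showed no shared deviation from their diet means (correlations of -0.055, 0.019 and -0.04), and the main fit treats the samples as unpaired. With so few libraries this check cannot tell whether same-numbered samples were collected or prepared together. With a replicate block 2197 genes were called, and 0 for the difference from fructose.

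Under the muscle covariate the log2 fold change turned in sign for Lsp1alpha (0.95), CG6206 (0.46), Tequila (0.96), Sodh-1 (0.60), CG10623 (-0.366), CG1461 (-0.17), Yp3 (0.81), Aats-trp (-0.049), LanB1 (0.17) and Lcp3 (-0.45), with no adjusted p under 0.05 among them. Of 233 called genes that the naming rule took, 231 were still called under median of ratios scaling and limma-voom, 220 with the block, 178 with total scaling, 116 without variance sharing and 14 with the muscle covariate. The planned search of promoters for motifs was not run, because no promoter sequence was used here. The spread between 3 libraries gave the median gene a 95% interval of 0.49 on the log2 scale to either side.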
